A study of Homo sapiens with 4 samples.

Results

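Transcripts were looked up for 9 genes known for the alternative splicing program of epithelial to mesenchymal transition (EMT). These were the spliced targets CD44, CTNND1 and ENAH, the epithelial splicing regulators ESRP1 and ESRP2, and the mesenchymal splicing regulators RBFOX2, QKI, MBNL1 and MBNL2. They were found by exact gene name in a table of RIP-seq, a method that sequences the RNA pulled down together with an immunoprecipitated protein, beside RNA of the lysate it was taken from. Of these 9 genes, 8 were listed, with 88 of the 75165 listed transcripts, and ESRP1 was not listed. All 4 libraries came from MDA-MB-231, a triple negative breast cancer cell line, transduced with a lentivirus that carries 3x flag-tagged YTHDC1 under a CMV promoter and selected with puromycin. The IP group held 2 libraries of RNA recovered with anti-flag antibody from the nuclear lysate of UV-crosslinked cells, and the input group held 2 libraries of RNA from the same kind of lysate. Both groups thus overexpressed YTHDC1, and no library without the transgene or with control IgG was analysed here. Per the study's methods, RIP-seq RNA was depleted of ribosomal RNA before the libraries were made. The counts below are therefore of RNA from nuclear lysate and not of the mRNA of whole cells. The only measured value used is the authors' mean normalized count, 1 value per transcript over the IP and input libraries together. It says how much of a transcript was sequenced in the pool of both groups, and neither how much was bound nor how much was in the nucleus. The pooled mean carries no spread between replicates and the depth of each library is unknown, so the values below stand without an error and no difference was tested.

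In EMT, epithelial cells lose their junctions and gain motility, and many of their genes keep being transcribed while their exons are joined differently. ESRP1 and ESRP2 are RNA-binding proteins that hold the epithelial pattern of exons in place, while RBFOX2, QKI and the muscleblind proteins MBNL1 and MBNL2 bind near many of the same exons and are known for the mesenchymal pattern. YTHDC1 is the nuclear reader of N6-methyladenosine (m6A) on RNA and is known to act on splicing and on the export of mRNA. The table names the type that GENCODE gives each transcript. A protein-coding transcript has an annotated reading frame, which need not be complete, a nonsense-mediated decay transcript has an early stop that is predicted to mark it for degradation, a retained-intron transcript keeps intron sequence, and a processed transcript has no annotated reading frame.

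MDA-MB-231 is known as a line of mesenchymal type, and the listed markers are given beside that label. Their counts pool IP and input and are not divided by length, so they are not expression levels of the line. Of 6 mesenchymal markers all were listed, and the summed mean normalized count was 80785 for VIM, 63189 for AXL, 16414 for FN1 and 1823 for ZEB1, but 14.4 for CDH2 and 11.4 for SPARC. Of 7 epithelial markers, 5 were listed. CDH1, the epithelial cadherin, had 1 transcript, of the nonsense-mediated decay type, at 10.0. GRHL2 had 6.58, EPCAM 78.3 and CLDN7 249, and CLDN4 reached 2266. RAB25 and ESR1 were not listed. ESR1 encodes the estrogen receptor and the line is triple negative, so its missing row is not read as a loss of epithelial type. YTHDC1, the overexpressed gene, had 6 transcripts that summed to 55488.

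The spliced targets had 7 to 30 listed transcripts each, ESRP2 had 2 and the mesenchymal regulators 4 to 13. The most abundant transcript was protein-coding in 6 of the 8 genes. The exceptions were QKI and MBNL2, both mesenchymal regulators, whose most abundant transcript was annotated as a nonsense-mediated decay transcript. For comparison, 5.68% of the 10075 protein-coding genes with at least 2 listed transcripts and a summed mean of at least 100 had a leading transcript of that type, and 88.2% had a protein-coding one. With 8 members, these counts are a description, and that of QKI rests on a lead of 1.22-fold over a protein-coding transcript, with no replicate check. Normalized counts were not divided by transcript length, as no length of the annotation used was at hand. A long transcript collects more reads than a short one at the same number of molecules, so the levels of different genes are not ranked here, and each percent below is a percent of normalized counts and not of molecules.

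**Figure D1:**
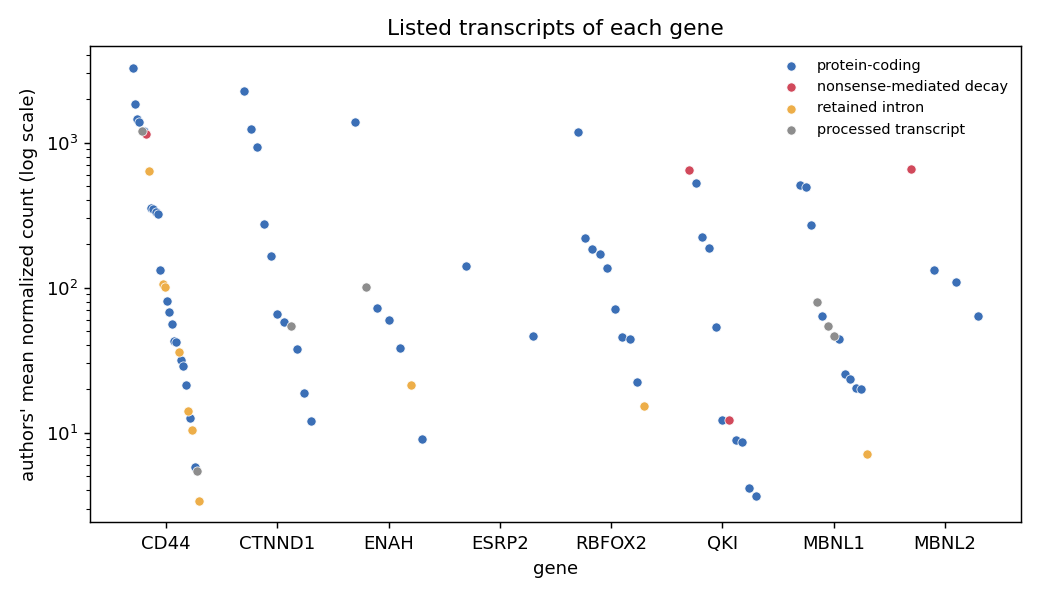
Authors' mean normalized count of each of the 88 listed transcripts (y axis, log scale) for the 8 listed genes (x axis), with 1 point per transcript, ordered from high to low within a gene and coloured by annotated type. The highest point is a nonsense-mediated decay transcript in QKI and MBNL2, and a protein-coding transcript in the other 6 genes.

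Among the spliced targets, CD44 (ENSG00000026508.19, RefSeq position chr11:35139171-35232402 on GRCh38.p14) encodes the hyaluronan receptor, whose variable exons are joined in many combinations in epithelial cells and skipped in the standard form that mesenchymal cells favor. CD44 had 30 listed transcripts, a number that 11 of all 20298 listed genes reached or passed. Its summed mean normalized count was 14306, spread over many transcripts. CD44-204 led with 3286, followed by CD44-201 with 1857 and CD44-205 with 1444, and these 3 made up 46.0% of the sum. Of the 30 transcripts, 15 had a mean of at least 100 and 3 a mean below 10, the lowest being 3.41.

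CD44-201 (ENST00000263398.10) encodes the standard form without variable exons, and CD44-208 (ENST00000428726.8) encodes the longest form with them. This pair was singled out after the values were seen. CD44-208 had a mean normalized count of 67.5, so the count of CD44-201 was 27.5 times as high. This ratio holds for the pair alone and does not say which form prevailed. No exons were listed, so the forms named for CD44-201 and CD44-208 are prior knowledge and not a result here. The other protein-coding transcripts, CD44-204 among them, were not assigned to a form, so the standard and variable forms were not summed. The 20 protein-coding transcripts held 77.2% of the CD44 sum. The nonsense-mediated decay transcript CD44-207 had a mean of 1148, or 8.02% of the sum. The 7 retained-intron transcripts held 6.34% together, and CD44-225, with 636, was the most abundant of them. A processed transcript, CD44-227, reached 1205.

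CD44 was more evenly divided than most genes with many transcripts. Its leading transcript held 23.0% of the sum. Among the 58 protein-coding genes with 21 or more listed transcripts the median was 33.9%, with quartiles of 25.8% and 49.0%, and 17.2% of these genes had a lower value than CD44. Expressed as an effective number, the inverse of the summed squared shares, which would equal 30 if all transcripts were alike and 1 if a single transcript held everything, CD44 had 8.76, and the median of the same 58 genes was 5.49.

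CTNND1 (ENSG00000198561.14, chr11:57761802-57819540) encodes p120 catenin, which holds cadherins at the membrane and switches between long and short forms in EMT through the choice of early exons. It had 11 listed transcripts with a sum of 5117 normalized counts. CTNND1-214 had a mean of 2260, CTNND1-240 of 1239 and CTNND1-223 of 933, which together made up 86.6% of the sum. The other 8 ranged from 12.0 to 274. All but 1 transcript were protein-coding, at 98.9% of the sum, and the processed transcript CTNND1-237 had a mean of 54.5. No nonsense-mediated decay or retained-intron transcript of CTNND1 was listed. Its leading transcript held 44.2%, close to the median of 44.1% over the 937 genes with 11 to 20 listed transcripts. Which of these transcripts encode the long form is not given in the table.

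ENAH (ENSG00000154380.17, chr1:225486829-225653878) encodes Mena, an actin regulator of motile cells that gains a small exon in epithelial cells. It was the most concentrated of the spliced targets. ENAH-203 had a mean of 1382 normalized counts, 82.0% of the sum of 1685 over 7 transcripts, and 13.7 times that of the second, the processed transcript ENAH-205 with 101. The protein-coding ENAH-204 followed with 72.9. Among the 3471 genes with 6 to 10 listed transcripts, 91.3% had a leading transcript with a lower percent, and their median was 49.5%. The retained-intron transcript ENAH-202 had a mean of 21.3, and the lowest transcript, ENAH-201, of 9.12.

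**Figure D2:**
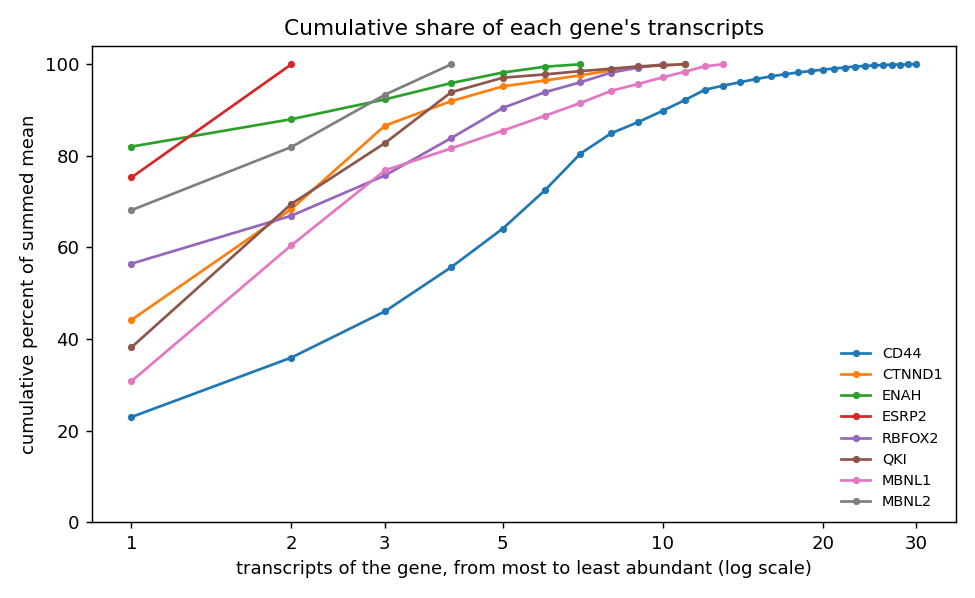
Cumulative percent of each gene's summed mean normalized count (y axis) over its transcripts from most to least abundant (x axis, log scale), 1 line per gene. ENAH starts highest at 82.0% with 1 transcript, whereas CD44 starts at 23.0% and has reached 46.0% after 3.

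Of the epithelial regulators, ESRP1 had no row. The authors listed only transcripts that passed a minimum read count in enough libraries, so a missing row does not show that the RNA was absent. ESRP2 (ENSG00000103067.14, chr16:68229033-68236127) was listed with 2 transcripts, both protein-coding. ESRP2-202 had a mean normalized count of 141 and ESRP2-210 of 46.3, a sum of 187. ESRP2-202 thus held 75.3% of the gene, and 58.9% of the 5609 genes with 2 to 5 listed transcripts had a lower percent in their leading transcript.

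The 4 mesenchymal regulators were all listed, with 38 transcripts. RBFOX2 (ENSG00000100320.23, chr22:35738736-36028824), which binds a short motif in introns beside its target exons, had 10 transcripts with a sum of 2086 normalized counts. RBFOX2-209 had a mean of 1178 and held 56.5%, which was 5.39 times the mean of the second, RBFOX2-201, at 219. RBFOX2-206 followed with 183. The other protein-coding transcripts lay between 22.5 and 171, and a retained-intron transcript, RBFOX2-213, was lowest with 15.2. No nonsense-mediated decay transcript of RBFOX2 was listed.

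MBNL1 (ENSG00000152601.17, chr3:152243632-152465780), a zinc finger protein that binds RNA and is known to regulate exons of its own transcript, had 13 transcripts with a sum of 1664. Its lead was divided. MBNL1-213 had a mean of 512 and MBNL1-212 of 494, a ratio of 1.04, and with no replicate values these cannot be put in an order. MBNL1-201 followed with 272. All 3 are protein-coding and together held 76.8% of the sum. The 3 processed transcripts of MBNL1 held 10.9%, and the single retained-intron transcript, MBNL1-222, had the lowest mean, 7.15. The leading transcript held 30.8%, and 20.7% of the 937 genes with 11 to 20 transcripts had a lower value.

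QKI (ENSG00000112531.17, chr6:163414718-163578592), an RNA-binding protein of the STAR family whose isoforms differ in their last exons and in their place in the cell, had 11 transcripts with a sum of 1691. The nonsense-mediated decay transcript QKI-204 (ENST00000361758.8) had a mean of 645, against 530 for the protein-coding QKI-206 and 225 for the protein-coding QKI-210. The order of QKI-204 and QKI-206, at the ratio given above, cannot be settled either. The 9 protein-coding transcripts together held 61.1% of the sum, more than the 38.9% of the 2 nonsense-mediated decay transcripts, of which the other, QKI-217, had a mean of 12.1. Even so, 94.2% of the 937 genes with 11 to 20 transcripts had a smaller percent in nonsense-mediated decay transcripts than QKI. Of its 11 transcripts, 4 had a mean below 10, the lowest being QKI-205 with 3.66.

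MBNL2 (ENSG00000139793.18, chr13:97141834-97394120), the close relative of MBNL1, had 4 listed transcripts with a sum of 960. The nonsense-mediated decay transcript MBNL2-206 (ENST00000469707.5) had a mean of 654 normalized counts, 68.1% of the sum and 4.94 times the mean of the next. The protein-coding MBNL2-202 had 132, MBNL2-201 had 110 and MBNL2-205 had 63.9, which left 31.9% for protein-coding transcripts. Of the 10075 genes described above, 387 (3.84%) had more than 50% of their sum in nonsense-mediated decay transcripts, and 6342 had none listed. The percent in MBNL2 was higher than in 98.1% of the 5609 genes with 2 to 5 transcripts.

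**Figure D3:**
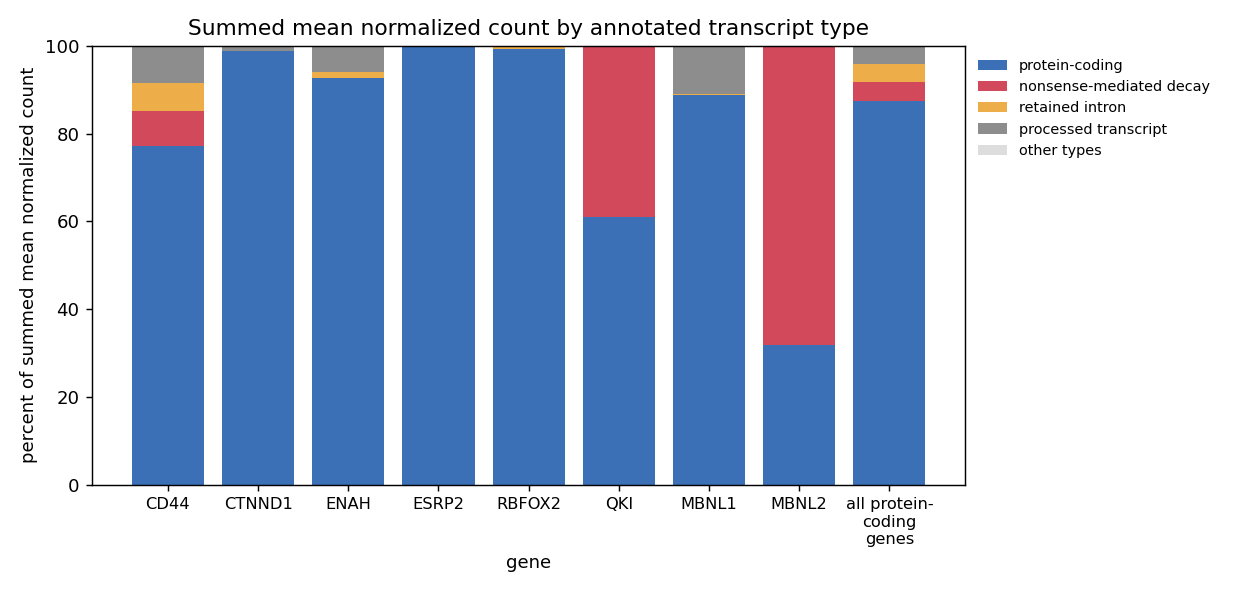
Percent of the summed mean normalized count (y axis) in each annotated transcript type for the 8 genes and for all protein-coding genes together (x axis). Nonsense-mediated decay transcripts hold 68.1% in MBNL2, 38.9% in QKI and 8.02% in CD44, none is listed in the other 5 genes, and the value for all protein-coding genes is 4.22%.

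Across the 88 transcripts the types were divided unevenly. Protein-coding transcripts were 67 of them (76.1%), against 59.6% of the 65841 transcripts of all protein-coding genes, while retained-intron transcripts were 10 (11.4%, against 17.2%), processed transcripts 7 (7.95%, against 13.2%) and nonsense-mediated decay transcripts 4 (4.55%, against 9.86%). Pooled over the members, the nonsense-mediated decay type was thus a smaller part of the transcripts than in all protein-coding genes. It was a larger part of the counts. CD44-207, MBNL2-206 and QKI-204 had means between 645 and 1148, and QKI-217 was at 12.1. Over all protein-coding genes the median was 42.1 for this type, without matching for gene level or transcript length. The 4 nonsense-mediated decay transcripts held 8.88% of the members' summed mean normalized count, against 4.22% in all protein-coding genes. That pooled percent comes from CD44, MBNL2 and QKI alone, and CD44 made up 14306 of the total of 27696 normalized counts. For CD44, the 8.02% in this type was higher than in 53.4% of the 58 genes with 21 or more transcripts. Retained-intron transcripts held 3.43%, against 4.16%. Of the 10 retained-intron transcripts, 7 belonged to CD44 and 1 each to ENAH, RBFOX2 and MBNL1. Transcripts of 1 gene share most of their exons, and a read that fits several was divided among them by estimation, so the 88 values are not independent and a leading transcript can owe its mean to shared reads.

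The share of the leading transcript had a median of 50.3% over the 8 genes and of 60.0% over the 10075 genes, with quartiles of 45.1% and 78.5%. It falls with the number of listed transcripts, and 5609 of the 10075 genes had 2 to 5 of them, against 2 of the 8 members. Beside genes of their own class of transcript number, 4 members (CTNND1, ENAH, ESRP2 and RBFOX2) lay above the median of the class and 4 (CD44, QKI, MBNL1 and MBNL2) below it. CTNND1, at 44.2% against 44.1%, and MBNL2, at 68.1% against 69.6%, lay close to that median. With no replicate values, their side of it cannot be settled. The members' values ran from 23.0% in CD44 to 82.0% in ENAH, which are both spliced targets, so this group held both ends.

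**Figure D4:**
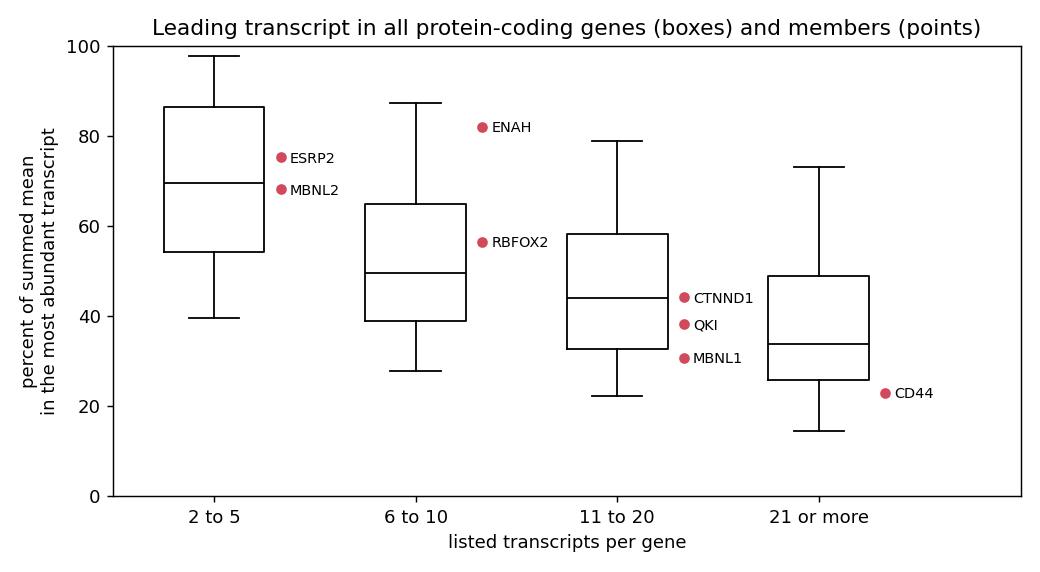
Percent of the summed mean normalized count in the most abundant transcript (y axis) by number of listed transcripts (x axis), for protein-coding genes with at least 2 transcripts and a sum of at least 100. Boxes give the quartiles and median, whiskers the 5th and 95th percentiles, and points the 8 members; ENAH lies near the top of its class and CD44 below the lower quartile of its own.

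Other genes of the same program were taken from 2 lists. Of 10 other splicing regulators, 8 were listed, and RBFOX1 and RBFOX3, the neuronal relatives of RBFOX2, were not. The leading transcript was protein-coding in 6 of the 8. It was a retained-intron transcript in SRSF1, a splicing factor of the SR family, where SRSF1-202 had a mean of 1032 normalized counts and held 40.7% of the sum, with a further 33.5% in nonsense-mediated decay transcripts. It was a processed transcript in PTBP2, at 110 of 154. MBNL3, the remaining muscleblind gene, summed to 134 over 6 transcripts with none of the nonsense-mediated decay type. No gene of this list had a nonsense-mediated decay transcript in the lead. All of 10 other spliced targets were listed and all had a protein-coding leader. FGFR2, the receptor whose exons IIIb and IIIc are exchanged in EMT, had 1 transcript, FGFR2-209, at 5.82. The leading transcript held from 33.8% in NUMB to 89.3% in SLK among the targets with more than 1 transcript.

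Antisense RNA was listed beside a pair of the members, CD44-AS1 with 1 transcript at 41.2 normalized counts and MBNL1-AS1 with 2 that summed to 23.0. The libraries were made with a kit that keeps the strand, per the study's methods. Whether the counting used it is not stated. Reads of these genes may thus not have been told apart from those of CD44 and MBNL1 where they overlap, which was not examined.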

How the data were processed

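RIP-seq of 4 MDA-MB-231 libraries (2 IP, 2 input) was grouped by the sample titles. The authors aligned the libraries to GENCODE transcripts by STAR (version 2.7.2b), on GRCh38 per the labels, obtained reads per transcript from RSEM (version 1.2.31), kept transcripts above a minimum read count, corrected batch effects with RUVSeq and compared the groups with DESeq2. The authors deposited 1 table. Its signal value is, for each transcript, the authors' normalized count averaged over the IP and input libraries and not divided by length. No column holds a single library, so no test, replicate error, interval or floor could be given. The table's remaining columns hold the authors' own comparison of the groups (log2 fold change, its error, p-value and adjusted p-value) and were not used.

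Means were summed over the transcripts of a gene, and the share and type of the most abundant transcript were taken. The steps were tested on simulated data, as a check of the arithmetic alone. Whether a transcript leads because of how shared reads were divided was not tested. Background genes were protein-coding with at least 2 listed transcripts and a sum of at least 100. Named were the 9 genes, the 3 most abundant transcripts of each, and the most abundant retained-intron and nonsense-mediated decay transcript; others were named after their values were seen. The members and lists were chosen with earlier results of these data known. All 8 listed members had coordinates in RefSeq (GRCh38.p14). Alternatives were minimum means of 10 and 100 and protein-coding transcripts alone. Python 3.11.15, numpy 2.4.6, pandas 2.3.3 and matplotlib 3.10.9 were used.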

Additional observations from a re-analysis of the deposited data

How the results depend on the processing

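With a minimum mean normalized count of 100, 38 of the 88 transcripts were left, 82.3% of the members' summed mean was in protein-coding transcripts in place of 82.1%, and the median share of the leading transcript was 54.4% in place of 50.3%. With protein-coding transcripts alone that median was 48.0%, and the leaders of QKI and MBNL2 became QKI-206 with 51.3% and MBNL2-202 with 43.3% of what was left, since the nonsense-mediated decay transcripts were dropped. A minimum drops only the lowest transcripts of a gene and every leader had a mean above 100, so the 6 genes with a protein-coding leader and the 8 listed genes could not change under either minimum. With protein-coding transcripts alone, 8 genes were still listed. By gene, the share of the leader could only rise under a minimum, most in ESRP2, by 24.7 percentage points at a minimum of 100. There only 1 of the 2 ESRP2 transcripts was left, so its share had to be 100%. Percents were called changed when they differed at 3 digits, since no replicate spread was at hand. Values per kilobase were not run, because no transcript lengths of the annotation were used. No paired analysis was possible because the table gives no value per library, and for the same reason no library could be left out. Depth per library is unknown, so it cannot be said how many reads stand behind a low mean.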
